A study of Mus musculus with 5 samples.

Results

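Transcripts of 10 integrin subunits were followed through the juvenile mouse ovary: the α subunits Itga1, Itga3, Itga5, Itga6, Itga8, Itga9 and Itgav and the β subunits Itgb1, Itgb4 and Itgb5. They were chosen by name, as 10 of the 31053 genes listed in each of 5 single-cell RNA-seq libraries, and all 10 were detected. Each library was made from the ovaries of untreated C57BL6/J mice at 1 age, 2, 3, 4, 5 or 6 wk, so that every group shared the strain and none carried a transgene or an added agent. How many animals were pooled for a library is not stated. An age therefore had no replicate, and the 5 libraries were the replicates of a cell class.

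Integrins are receptors that anchor cells to the surrounding matrix, each made of 1 α and 1 β chain that cross the membrane as a pair. The pairing sets the ligand: α3β1, α6β1 and α6β4 bind laminins, the main glycoproteins of basement membranes; α1β1 binds collagens, collagen IV among them; α5β1, α8β1 and the αv integrins bind matrix proteins that carry an RGD motif, such as fibronectin, nephronectin and vitronectin; and α9β1 binds tenascin-C and other ligands. The β4 chain pairs with α6 and links it to intermediate filaments in hemidesmosomes, while the β1 chain serves many α chains. In the ovary a basement membrane encloses each follicle and separates the granulosa cells, which surround the oocyte, from the theca cells and vessels outside.

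The members lie on 7 mouse chromosomes, with Itga6, Itga8 and Itgav on chromosome 2 and Itga3 and Itgb4 on chromosome 11 (GRCm38 annotation). RefSeq promoters (GRCm38.p6) were at hand for 8 of the 10, namely Itga1, Itga3, Itga5, Itga8, Itga9, Itgav, Itgb1 and Itgb5. The 250 bases before the start are printed for 3 genes with large differences between cell classes, Itga1 and Itga8, which were high in contractile and pericyte-like cells, and Itga3, which was high in epithelial cells. All 3 genes are on the minus strand, and each sequence is given 5′ to 3′ on that strand. Capitals mark CAGCTG (an E-box) or GGGCGG (a GC box), searched on both strands. The Itga3 entry is that of the start nearer the 5′ end of the annotated gene. Part of its window lies within that gene, which reaches position 95076801 of chromosome 11.
Itga1, chr13:115101965-115102214: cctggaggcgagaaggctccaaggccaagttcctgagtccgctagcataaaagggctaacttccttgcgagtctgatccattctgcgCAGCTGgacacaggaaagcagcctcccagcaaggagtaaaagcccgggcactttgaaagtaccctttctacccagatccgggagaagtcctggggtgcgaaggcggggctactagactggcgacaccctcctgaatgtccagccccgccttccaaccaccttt
Itga8, chr2:12301945-12302194: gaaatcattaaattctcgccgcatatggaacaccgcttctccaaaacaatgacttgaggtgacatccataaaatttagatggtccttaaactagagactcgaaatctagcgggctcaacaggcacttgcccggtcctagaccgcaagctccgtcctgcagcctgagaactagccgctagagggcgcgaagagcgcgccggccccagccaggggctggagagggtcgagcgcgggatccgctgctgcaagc
Itga3, chr11:95076715-95076964: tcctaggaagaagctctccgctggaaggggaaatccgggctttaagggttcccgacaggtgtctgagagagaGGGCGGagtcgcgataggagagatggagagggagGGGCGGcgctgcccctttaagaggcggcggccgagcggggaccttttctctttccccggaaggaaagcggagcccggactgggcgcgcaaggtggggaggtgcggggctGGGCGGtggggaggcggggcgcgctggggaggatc
GGGCGG was found 3 times before Itga3 and in 32.7% of 32851 promoters of that length, and CAGCTG once before Itga1 and in 13% of them. The CArG box, the sequence bound by serum response factor in genes of contractile cells, was in 1.47% of promoters, and AAGGTCA, the half-site of the Nr5a receptors, in 4.08%. Neither was in the window of any of the 8 members, which says only that these letters are not in these windows.

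The libraries held 7779 to 11077 cells each, 48163 in all, with medians of 9056 to 12424 UMIs (distinct RNA molecules) per cell. Between 18 and 35 cell barcodes were shared by any pair of libraries. Cell Ranger 3.1.0 made the 2 to 4 wk tables and 6.0.1 those of 5 and 6 wk, so the version and the age cannot be told apart. Clusters were rebuilt with all integrin genes left out of the clustering features and were named "-like" from marker genes. Of 34 clusters 26 were named, with 82.8% of the cells: 17848 granulosa-like, 13774 stromal-like, 4150 smooth muscle-like, 1422 theca-like, 856 pericyte-like, 714 blood endothelial-like, 498 hematopoietic-like, 320 surface epithelial-like, 230 lymphatic endothelial-like and 90 rete ovarii-like cells. No cluster was named for germ cells. Granulosa-like cells were clustered again into stages, and 82.6% of them fell in a named one. The largest of these clusters, cluster 0 with 2327 cells led by Itih5, Pid1 and Col11a1, took no name and is in no stage. Its best-scoring marker list was remodeling, with 11 of 12 markers. It took no name because its leading genes held more of another list. At a lower resolution of the clustering (0.6) a cluster with many of the same leading genes was named antral. With the libraries merged without integration, a similar cluster, mostly of 4 wk cells, scored best for remodeling and took no name. No cluster met the naming rule for the primordial stage, so antral and primordial cells were not compared. Levels are in CPM, the UMIs of a gene per 1000000 UMIs of the same cells in 1 library, and are compared here for 1 gene across cells, never between genes.

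Where each member was highest differed from class to class, as the map of levels shows. On the mean over libraries, Itga1 and Itgb1 were highest in pericyte-like cells, Itga8 in smooth muscle-like cells, Itga5 and Itga6 in blood endothelial-like cells, Itga9 and Itgb4 in lymphatic endothelial-like cells, Itga3 in surface epithelial-like cells, Itgav in granulosa-like cells and Itgb5 in hematopoietic-like cells. Only Itga1 had its highest class clear of the next. For the other 9 members the range over libraries in the highest class overlapped that of the class ranked second. The same count was not made over all genes, so whether such overlap is usual for a gene is not known. The ranking of members is of whole classes. For Itga6, the granulosa stage named primary held 501.5 to 846.2 CPM, above the 209.2 to 358.7 CPM of blood endothelial-like cells.

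**Figure D1:**
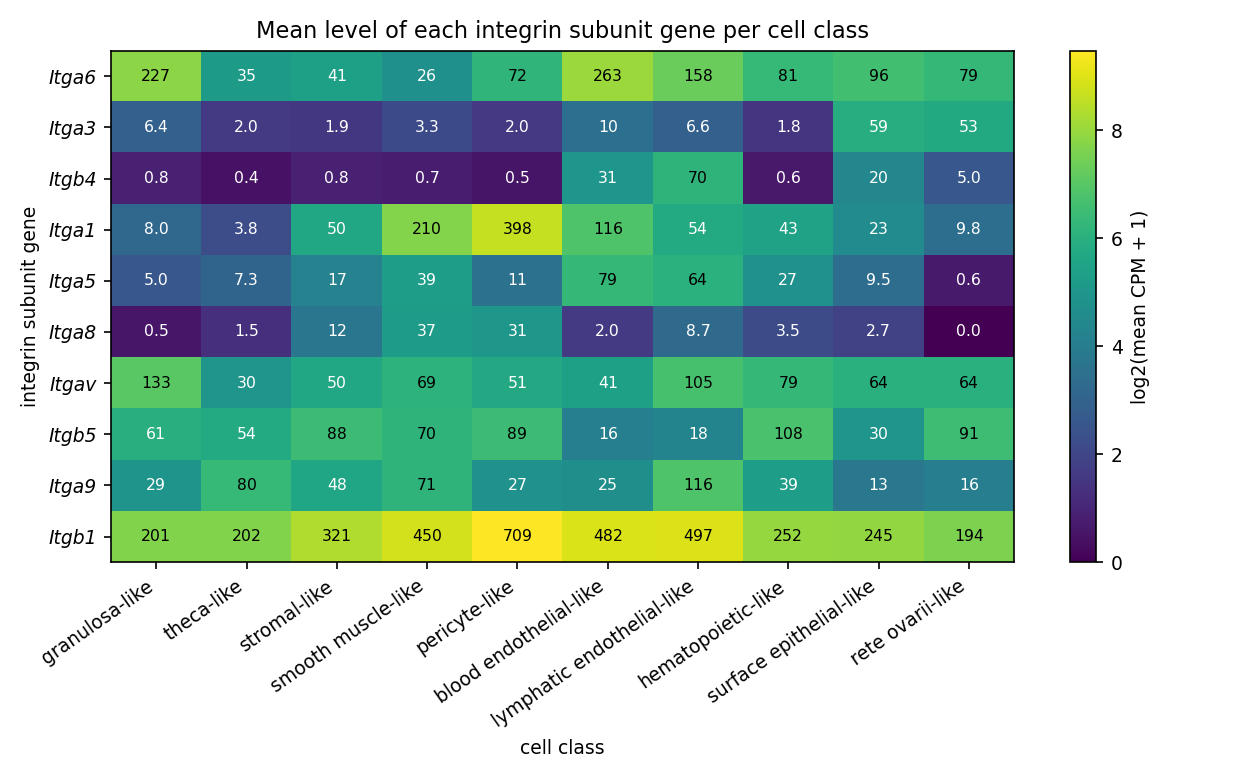
Mean level of the 10 integrin subunits (vertical axis) in the named cell classes (horizontal axis), colored by log2(mean CPM + 1) with the mean CPM over the libraries that had a sum in that class printed in each field. Itga1 and Itga8 are high in the smooth muscle-like and pericyte-like columns. Itgb4 is high in the endothelial-like columns and near 0 in the granulosa-like, theca-like, stromal-like, smooth muscle-like and pericyte-like ones.

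Neighboring classes were then compared with edgeR's quasi-likelihood test on UMIs summed per class and library, with the library as a block and Benjamini-Hochberg adjustment over all genes tested. A member was counted when its adjusted p was under 0.05. Granulosa-like against stromal-like cells had 3 members higher and 6 lower, where 32.2% and 29.7% of all genes were called higher and lower. Theca-like cells had 1 member higher and 7 lower than stromal-like cells (21% and 23.3% of all genes), and smooth muscle-like cells 7 higher and none lower (14% and 16.4%). With so many genes called in each contrast, the size and direction of a member's difference say more than the call. On the log2 scale the median difference of the members from stromal-like cells was -0.725 in granulosa-like, -0.744 in theca-like and 0.62 in smooth muscle-like cells. Over all genes it was 0.053, -0.018 and -0.03 in the same order.

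The contrasts that involve pericyte-like or endothelial-like cells split the members in both directions. Pericyte-like against smooth muscle-like cells had 3 members higher and 3 lower (19.4% and 17.5% of all genes), blood endothelial-like against pericyte-like cells 4 higher and 5 lower (17.7% and 19.1%), and lymphatic against blood endothelial-like cells 4 higher and 1 lower (8.73% and 10.8%). Without the 4 wk or without the 6 wk library, the last comparison called 3 members, 2 higher and 1 lower. Surface epithelial-like against granulosa-like cells had 4 higher and 4 lower (25.5% and 25.8%), and 6 higher and 4 lower with RLE size factors or the DESeq2 test. The shares of all genes called under these alternatives are not given, so their counts have no background beside them.

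The laminin-binding subunits are taken first. Itga6, the α chain of both α6β1 and α6β4, was at 556, 278, 76.1, 109 and 115 CPM in granulosa-like cells at 2, 3, 4, 5 and 6 wk, and at 29.1, 40.05, 50.6, 40.5 and 44.0 CPM in stromal-like cells. Every granulosa value was above every stromal one, and the granulosa values alone spanned a wide range. The difference was 2.11 ± 0.27 on the log2 scale (SE; edgeR adjusted p = 6.64e-09). It holds for the granulosa class as a whole and not for each of its stages. Antral cells from 3 wk on and remodeling cells from 4 wk on, given below, lay within or below the stromal range. Blood endothelial-like cells held 268, 359, 225, 209 and 256 CPM, and lymphatic endothelial-like cells 150, 218, 128, 165 and 128 CPM, which overlap. Lymphatic against blood endothelial-like cells did not pass (log2 difference -0.77 ± 0.30, edgeR adjusted p = 0.0686), and did without the 2 wk library (edgeR adjusted p = 0.0226). Pericyte-like cells had 43.4 to 92.9 CPM, all above the 19.2 to 32.1 CPM of smooth muscle-like cells, a difference of 1.28 ± 0.29 (edgeR adjusted p = 4e-04).

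Within the granulosa-like cells, Itga6 had the largest difference between antral and primary cells of the 8 members tested. Its level in cells named primary was 846, 688, 502, 677 and 623 CPM at 2, 3, 4, 5 and 6 wk. In antral cells it was 317, 46.4, 20.98, 22.7 and 35.6 CPM. The study's whole-ovary counts found no antral follicles up to 2 wk, though it also assigned 2 wk granulosa cells to antral clusters. Summed primary markers in the cells named antral here were 1663 CPM at 2 wk and 317.4 to 489 CPM at the later ages. The lowest primary library stood above the highest antral one, and antral cells were 12.47-fold lower (log2 difference -3.64 ± 0.36, edgeR adjusted p = 4.13e-09). Without the library block the difference was -2.83 (edgeR adjusted p = 0.00447). Cells named secondary lay between, with 175 to 476 CPM, and cells in S phase held 82.0 to 446 CPM. The secondary name rests on a single cluster with 5 of 9 markers. Clusters with many of its leading genes were named primary at resolution 0.6 and with integrin genes among the features. Its summed secondary markers were below those of antral cells at 3, 5 and 6 wk and above them at 2 and 4 wk. Across the granulosa clusters the mean ran from 1078 ± 260.5 CPM (SD, n = 5 libraries) in primary cluster 13, led by Ifi204, Mgp and Gatm, to 52.9 ± 68.2 CPM in antral cluster 8, led by Slc38a5, Nap1l5 and Dnajb13, leaving aside cluster 7 and the small cluster 16, which had no sum in some libraries. The plot of 3 members by stage and age shows the primary points apart from the antral ones.

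**Figure D2:**
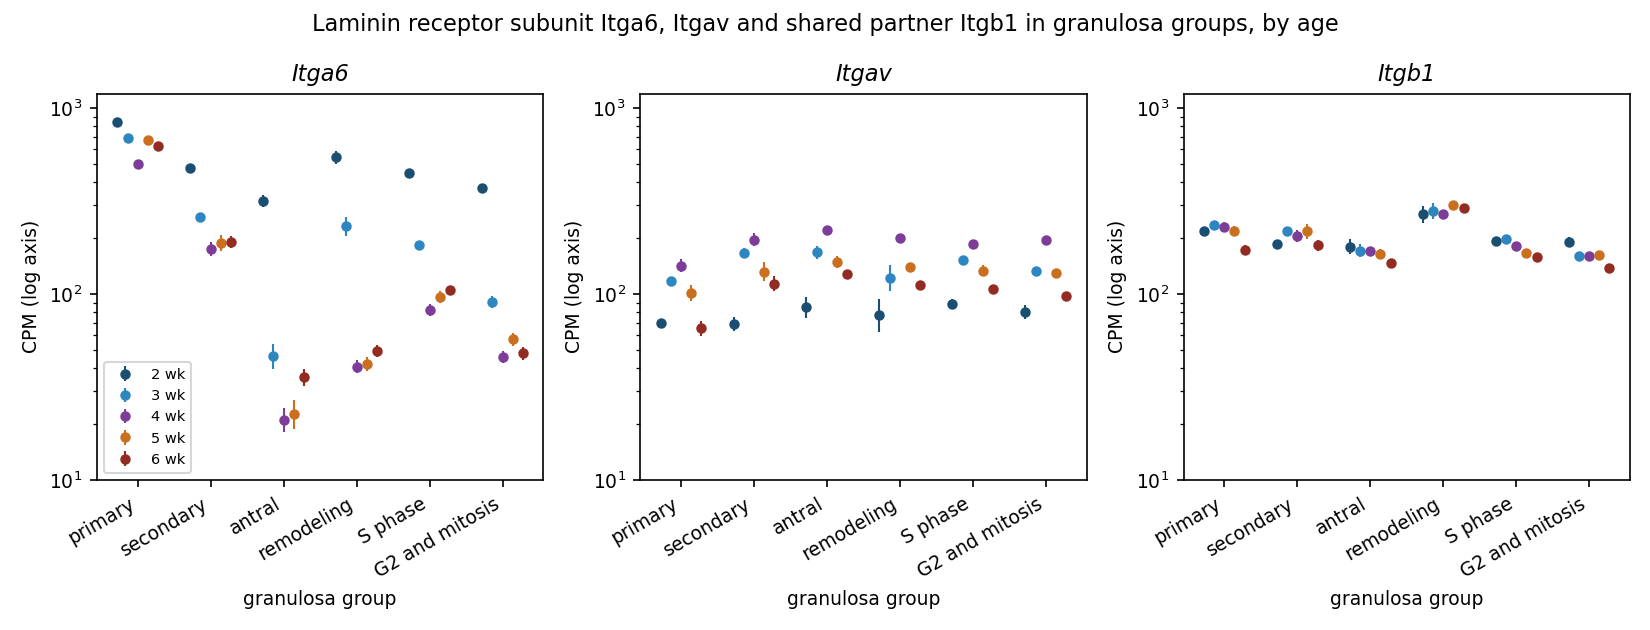
Level of Itga6, Itgav and Itgb1 (panels, CPM on a log vertical axis) in the named granulosa groups (horizontal axis), with 1 point per library colored by age and exact Poisson intervals that cover counting error only. Itga6 stays above 500 CPM in primary cells at every age and lies at 20.98 to 46.4 CPM in antral cells from 3 wk on, while Itgav has its highest point at 4 wk in each group.

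Against primary cells, antral cells had 4 members higher and 3 lower of the 8 tested (30.4% and 26.7% of all genes were called higher and lower), and Itga8 and Itgb4 had too few UMIs. Remodeling cells, which the study places in follicles undergoing atresia, were named here from Nupr1, Agt, Ghr and other markers. They had 6 members higher and 1 lower than antral cells (24.3% and 26%). Without the library block the second comparison called 3 members, all higher, and the share of all genes called in that fit is not given. At 2 wk 98 of the 111 remodeling cells were in the cluster led by Gpx3, Neat1 and Sorbs2, which held 252 of 1306 at 4 wk, 220 of 772 at 5 wk and 194 of 888 at 6 wk, so the makeup of that group changed with age.

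Itga3, the α chain of the laminin receptor α3β1, was the member with the largest rise in remodeling cells. It stood at 16.3, 14.3, 21.1, 14.7 and 14.1 CPM there at 2, 3, 4, 5 and 6 wk, at 8.79, 9.68, 12.4, 10.6 and 5.91 CPM in primary cells, and at 3.15, 2.25, 2.75, 2.75 and 2.70 CPM in antral cells. None of the 3 ranges overlapped, though those of single clusters did. Primary cluster 2 held 8.87 to 17.95 CPM and remodeling cluster 6 held 10.8 to 19.8 CPM. Primary cluster 5 held 3.72 to 7.68 CPM and antral cluster 11 held 1.65 to 4.26 CPM. Remodeling cells were 5.70-fold above antral cells (log2 difference 2.51 ± 0.19, edgeR adjusted p = 1.26e-10) and antral cells 3.13-fold below primary cells (-1.65 ± 0.20, edgeR adjusted p = 9.97e-08). Itga6 was higher in remodeling than in antral cells by 0.95 ± 0.34 (edgeR adjusted p = 0.0224), but its 40.7 to 543 CPM overlapped the antral range. Without the cluster led by Gpx3, Neat1 and Sorbs2 that difference was 0.18 (edgeR adjusted p = 0.687), and without the 3 wk library 0.66 (edgeR adjusted p = 0.166).

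Outside the follicle Itga3 was highest in the epithelial classes. Surface epithelial-like cells, which form the outer layer of the ovary, held 37.7, 71.6, 70.5, 57.0 and 55.9 CPM at 2, 3, 4, 5 and 6 wk, against 4.90 to 8.81 CPM in granulosa-like cells. The difference was 3.02 ± 0.24 (edgeR adjusted p = 9.17e-14), with no overlap. Rete ovarii-like cells, from tubules next to the ovary, had 37.4 CPM at 2 wk and 68.8 CPM at 3 wk, the 2 libraries with enough of these cells. The first of these lay just below the lowest surface epithelial value and the second within that range. Blood endothelial-like cells had 5.74 to 15.3 CPM against 0.40 to 3.44 CPM in pericyte-like cells, where 12 UMIs were counted in all (2.32 ± 0.44, edgeR adjusted p = 3.21e-05).

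Itgb4 was low outside the endothelial and epithelial classes. Granulosa-like cells had 0.51 to 1.13 CPM, stromal-like cells 0.35 to 1.17 CPM and pericyte-like cells 3 UMIs in all. In lymphatic endothelial-like cells it reached 50.9, 131.5, 76.4, 45.9 and 45.3 CPM at 2, 3, 4, 5 and 6 wk, and in blood endothelial-like cells 25.3, 67.4, 28.6, 21.9 and 10.1 CPM. In each library the lymphatic value was the higher, though the ranges overlapped (log2 difference 1.22 ± 0.36, edgeR adjusted p = 0.0108). That call was lost without the 4 wk library (edgeR adjusted p = 0.0626) and without the 6 wk library (edgeR adjusted p = 0.0543). Surface epithelial-like cells had 11.6 to 29.8 CPM, above every granulosa value (4.40 ± 0.41, edgeR adjusted p = 4.04e-12). Itgb4 was the only member called in theca-like cells from fewer than 10 UMIs, with 7 in all (-1.55 ± 0.63, edgeR adjusted p = 0.0413), and that call was lost in 7 of 14 alternatives.

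Itga1, the collagen-binding α chain, marked the contractile and perivascular cells. Pericyte-like cells held 465, 490, 370, 328 and 339 CPM at 2, 3, 4, 5 and 6 wk, smooth muscle-like cells 202, 193, 248, 206 and 199.8 CPM, and stromal-like cells 56.9, 34.8, 49.7, 51.2 and 56.9 CPM. These 3 classes did not overlap. Smooth muscle-like cells were 4.50-fold above stromal-like cells (2.17 ± 0.21, edgeR adjusted p = 5.81e-11). Pericyte-like cells were a further 1.65-fold higher (0.73 ± 0.21, edgeR adjusted p = 0.00466), a call lost without the 3 wk library (edgeR adjusted p = 0.0672). Blood endothelial-like cells, at 91.9 to 136 CPM, were lower than pericyte-like cells (-1.86 ± 0.23, edgeR adjusted p = 7.57e-09) and higher than lymphatic endothelial-like cells, at 19.9 to 76.4 CPM (the difference was -1.13 ± 0.29 for lymphatic cells, edgeR adjusted p = 0.00316).

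At the other end, Itga1 was low in the steroid-producing cells. Theca-like cells had 4.94, 1.63, 3.50, 3.01 and 5.80 CPM, 14.1-fold below stromal-like cells (-3.81 ± 0.29, edgeR adjusted p = 5.18e-14). When the mesenchyme was clustered again, early theca cells (markers Hhip, Ptch1 and Mest) held 39.6, 14.7, 25.8, 33.7 and 36.4 CPM and steroidogenic theca cells (Cyp11a1, Cyp17a1 and Star) 1.83, 0.55, 3.81, 2.27 and 2.53 CPM. The steroidogenic cells were below the early ones in all 5 libraries without overlap, by 13.1-fold (-3.71 ± 0.28, edgeR adjusted p = 4.72e-14). Of the members tested in that contrast, 1 was higher and 5 lower among 9 (23.9% and 24.9% of all genes). Within granulosa-like cells, Itga1 was low throughout and higher in antral than in primary cells (1.25 ± 0.27, edgeR adjusted p = 0.000338), where the values were 3.15 to 8.60 and 0.99 to 3.52 CPM. Merging the libraries without integration ended that call (edgeR adjusted p = 0.293).

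**Figure D3:**
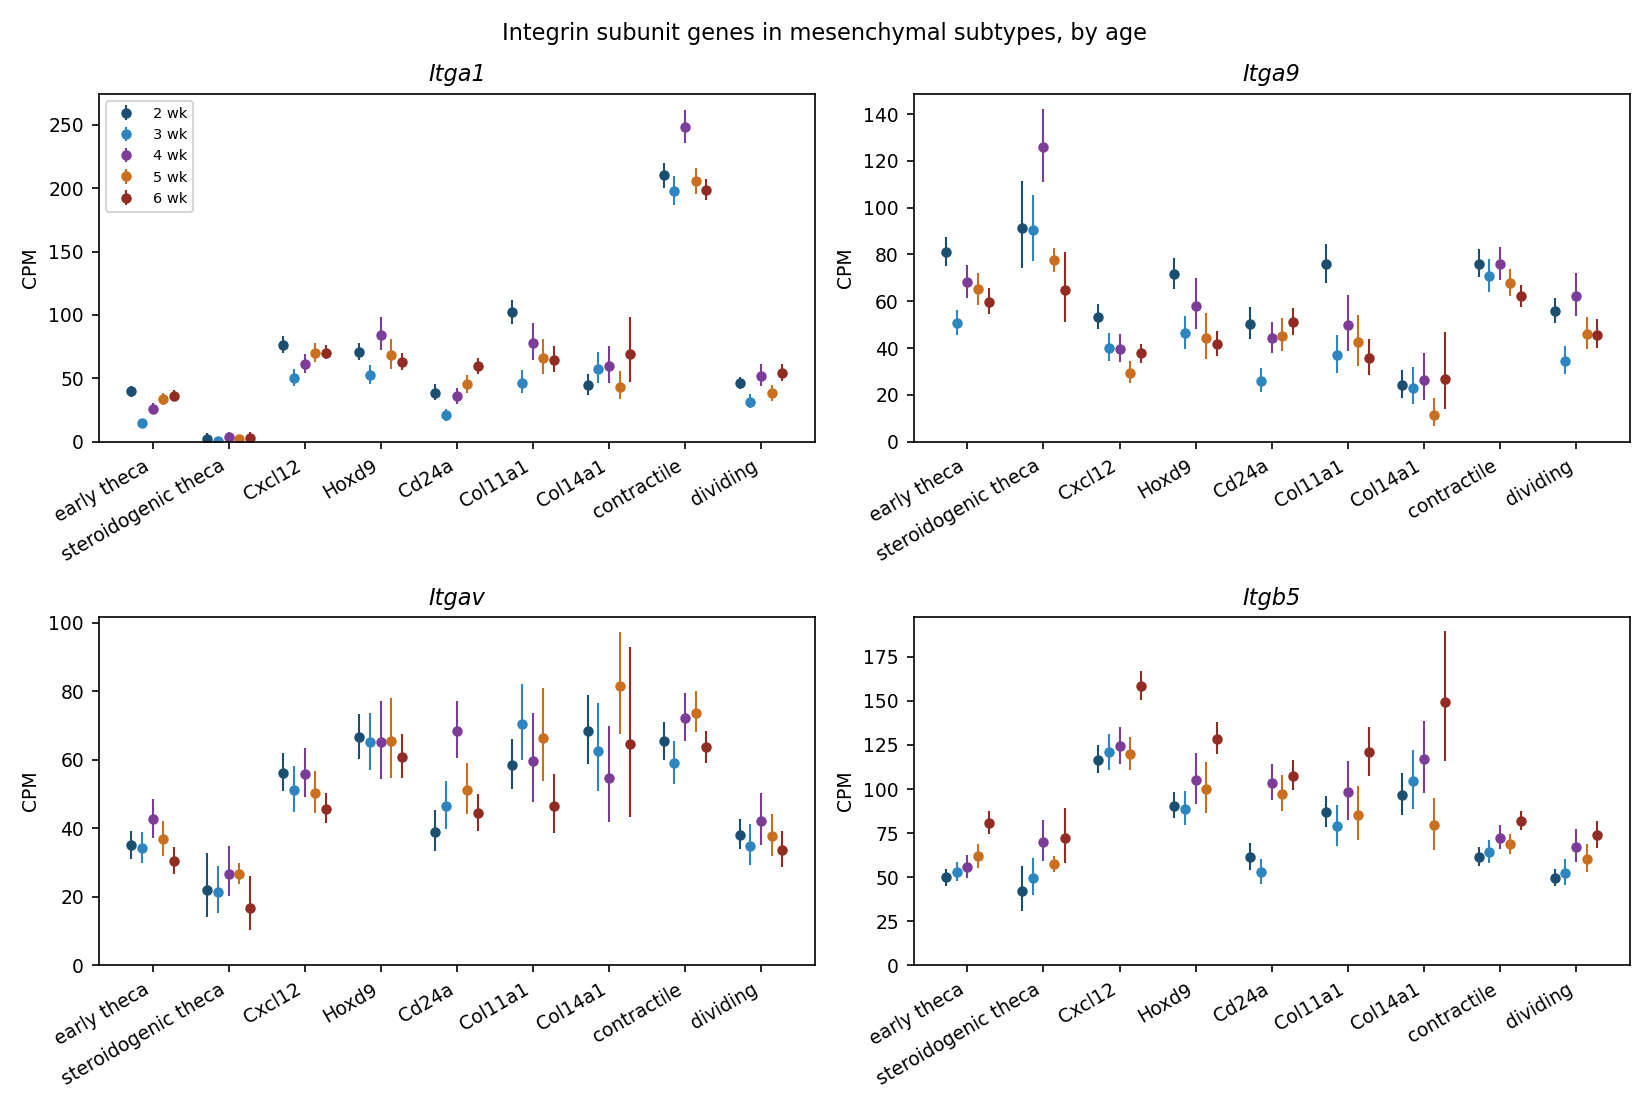
Level of Itga1, Itga9, Itgav and Itgb5 (panels, CPM on a linear vertical axis from 0) in the named mesenchymal subtypes (horizontal axis), with 1 point per library colored by age and exact Poisson intervals that cover counting error only. Steroidogenic theca cells have the lowest Itga1 and Itgav points and the highest mean of Itga9, 90.0 CPM.

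Among the RGD-binding subunits, Itga8, partner of Itgb1 in the receptor for nephronectin, was highest on average in contractile and perivascular cells. Smooth muscle-like cells held 22.3, 30.7, 36.5, 43.9 and 51.8 CPM at 2, 3, 4, 5 and 6 wk and pericyte-like cells 49.5, 37.8, 14.9, 29.5 and 24.4 CPM, which overlap. Stromal-like cells had 10.6 to 14.6 CPM, and granulosa-like cells 0.09 to 1.01 CPM, none of them overlapping the smooth muscle range. Among the mesenchymal subtypes the Cd24a cells held 13.4, 27.7, 24.3, 24.7 and 32.6 CPM, which overlapped the 23.2 to 53.0 CPM of the contractile subtype. The rise in smooth muscle-like over stromal-like cells was 3.18-fold (1.67 ± 0.28, edgeR adjusted p = 9.64e-06), and granulosa-like cells were 27.6-fold below stromal-like cells (-4.79 ± 0.34, edgeR adjusted p = 1.66e-15). Blood endothelial-like cells had 13 UMIs in all and were below pericyte-like cells (-4.40 ± 0.58, edgeR adjusted p = 3.99e-08). Lymphatic endothelial-like cells had 18 UMIs, and their call against blood endothelial-like cells (2.40 ± 0.88, edgeR adjusted p = 0.0483) was lost in 7 of 14 alternatives. Surface epithelial-like cells had 9 UMIs, and 7 of 14 alternatives likewise ended their call against granulosa-like cells (2.34 ± 0.96, edgeR adjusted p = 0.0402).

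Itga5, the α chain of the classical fibronectin receptor, was highest on average in the endothelial classes. It stood at 86.2, 88.9, 84.1, 71.1 and 62.6 CPM in blood endothelial-like cells at 2, 3, 4, 5 and 6 wk, and at 12.0, 11.5, 13.7, 9.45 and 6.80 CPM in pericyte-like cells. There was no overlap, and the difference was 7.32-fold (2.87 ± 0.28, edgeR adjusted p = 2.69e-11). Smooth muscle-like cells had 19.9 to 47.9 CPM and were above both stromal-like cells (1.24 ± 0.20, edgeR adjusted p = 2.98e-06) and pericyte-like cells (-2.07 ± 0.27 for pericyte-like against smooth muscle-like cells, edgeR adjusted p = 3.99e-08). Itga1 and Itga5 thus ran in opposite directions between smooth muscle-like and pericyte-like cells, Itga1 being higher and Itga5 lower in the pericyte-like ones. Among the mesenchymal subtypes, Col14a1 cells, named with Pi16 and Dpt, had 31.9, 24.1, 30.8, 40.7 and 11.2 CPM against 16.8, 20.1, 18.3, 10.2 and 10.4 CPM in Cxcl12 cells. The former were higher in 5 of 5 libraries although the ranges overlap (0.95 ± 0.17, edgeR adjusted p = 2.31e-05). That contrast called 2 members higher and 1 lower of 9 (16.2% and 15.1% of all genes). In granulosa-like cells Itga5 was low, at 2.16 to 4.45 CPM in primary, 2.81 to 8.05 CPM in antral and 5.69 to 13.5 CPM in remodeling cells. Antral cells were above primary cells (0.79 ± 0.25, edgeR adjusted p = 0.00875), a call lost without the 6 wk library and with the libraries merged without integration, and remodeling cells above antral cells (0.87 ± 0.23, edgeR adjusted p = 0.00216), a call lost without the library block (edgeR adjusted p = 0.0534).

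**Figure D4:**
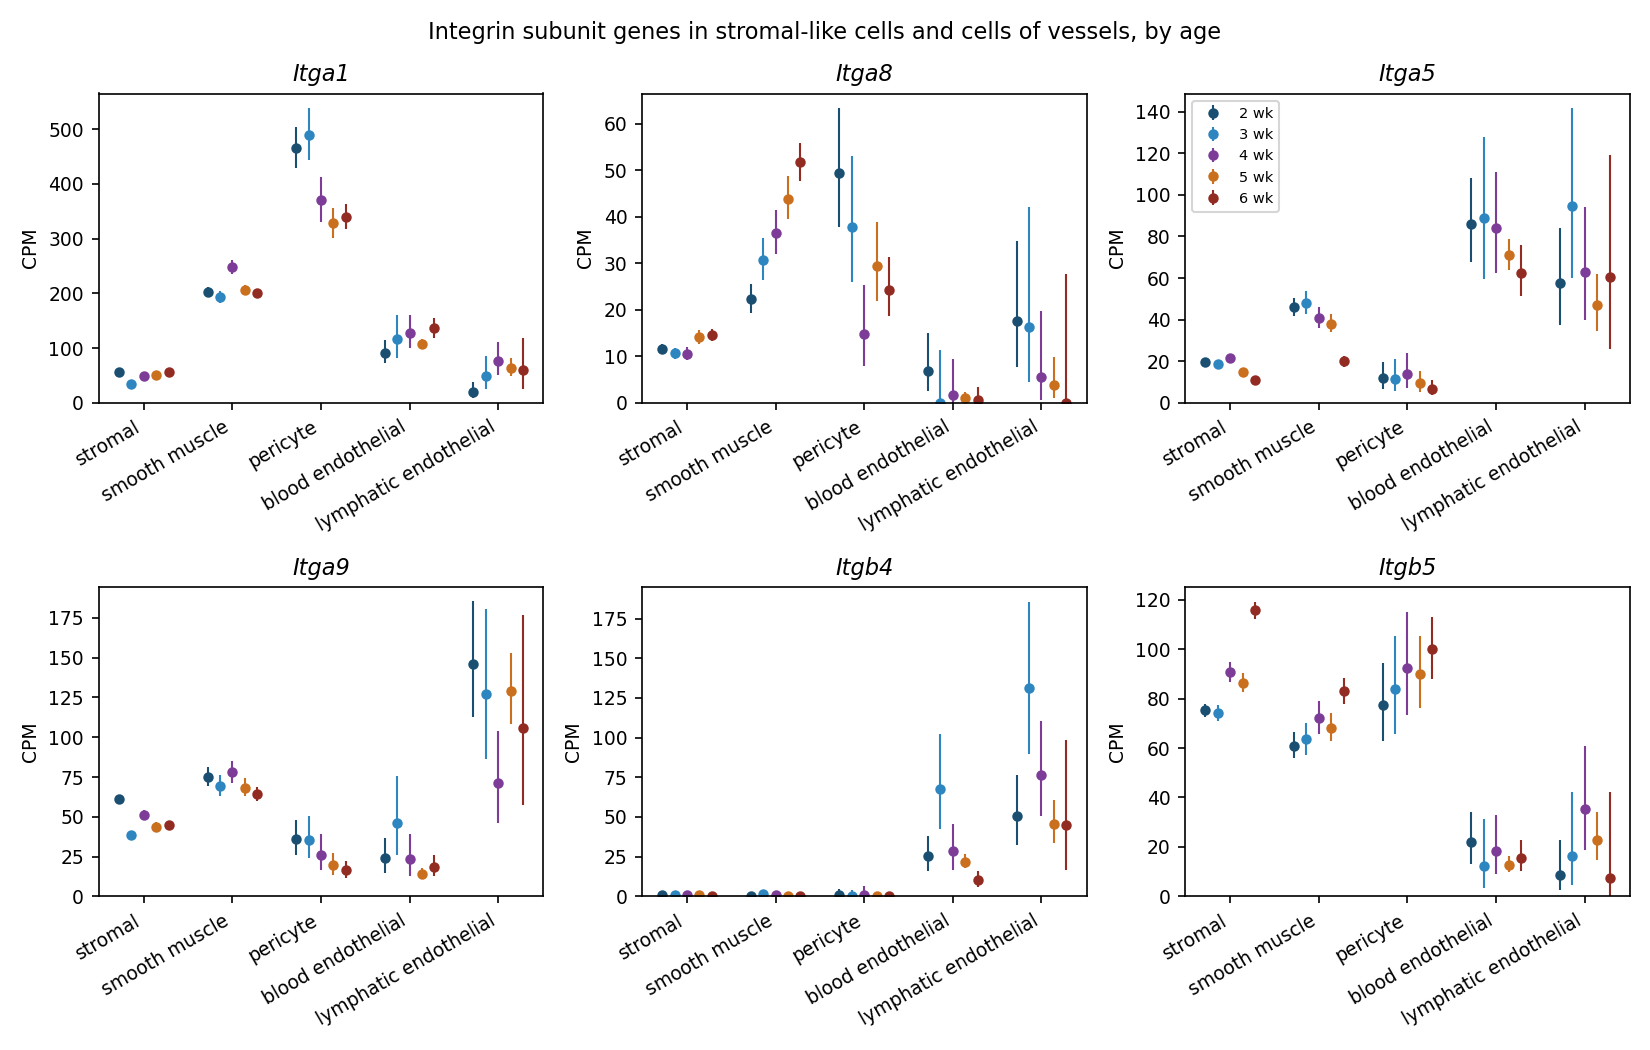
Level of Itga1, Itga8, Itga5, Itga9, Itgb4 and Itgb5 (panels, CPM on a linear vertical axis from 0) in stromal-like, smooth muscle-like, pericyte-like, blood endothelial-like and lymphatic endothelial-like cells (horizontal axis), with 1 point per library colored by age and exact Poisson intervals that cover counting error only. Itga1 lies highest in pericyte-like cells, and Itgb4 has higher points in the endothelial-like cells than in the others shown. Itga5 is highest on average in the endothelial-like cells and Itga9 in the lymphatic endothelial-like cells. For both genes the lymphatic points overlap the smooth muscle-like ones.

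Itgav, the αv chain that pairs with several β chains, was higher in granulosa-like than in stromal-like cells. Its granulosa level was 76.4, 143, 201, 135 and 109 CPM at 2, 3, 4, 5 and 6 wk against 49.5, 48.3, 56.2, 51.3 and 44.7 CPM in the stroma, with no overlap (1.25 ± 0.12, edgeR adjusted p = 1.01e-11). Theca-like cells had less than stromal-like cells, 24.2 to 34.5 CPM (-0.76 ± 0.13, edgeR adjusted p = 6.46e-06), and steroidogenic less than early theca cells (-0.65 ± 0.11, edgeR adjusted p = 7.68e-06). Antral cells were above primary cells in each of the 5 libraries, by 1.67-fold (0.74 ± 0.09, edgeR adjusted p = 8.12e-08), a call lost without the library block (edgeR adjusted p = 0.0567). Remodeling cells were slightly below antral cells (-0.25 ± 0.09, edgeR adjusted p = 0.0216), a call lost without the 3, 4 or 5 wk library and without the cluster led by Gpx3, Neat1 and Sorbs2. Lymphatic endothelial-like cells, at 88.9 to 126 CPM, were above blood endothelial-like cells, at 28.7 to 58.3 CPM, without overlap (1.33 ± 0.17, edgeR adjusted p = 8.47e-08).

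Itgb5, a partner of αv, went the other way from Itgav in granulosa-like against stromal-like cells, though not in theca-like against stromal-like cells. Granulosa-like cells had 55.5, 40.1, 80.3, 68.3 and 60.2 CPM, below the stromal-like values of 75.3, 74.05, 90.7, 86.4 and 115.7 CPM in every library (-0.66 ± 0.14, edgeR adjusted p = 7.13e-05). Blood endothelial-like cells had 12.3 to 21.8 CPM, far from the 77.4 to 99.96 CPM of pericyte-like cells (-2.60 ± 0.20, edgeR adjusted p = 5.63e-14). Hematopoietic-like cells had the highest mean, 108 ± 34.2 CPM (SD, n = 5 libraries), a range that overlapped the rete ovarii-like, pericyte-like and stromal-like ranges among others. In the granulosa stages Itgb5 was higher in antral than in primary cells (0.53 ± 0.17, edgeR adjusted p = 0.00841), a call lost without the 4 wk or the 5 wk library and without integration, and higher in remodeling than in antral cells (0.52 ± 0.17, edgeR adjusted p = 0.0108), a call lost without the 6 wk library and without the library block (edgeR adjusted p = 0.0983).

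Itga9, whose β1 pair binds tenascin-C and is known from lymphatic valves, was highest on average in lymphatic endothelial-like cells, at 146, 127, 71.0, 129 and 106 CPM at 2, 3, 4, 5 and 6 wk. Blood endothelial-like cells held 24.1, 46.0, 23.5, 13.9 and 18.5 CPM, all lower, and the difference was 5.34-fold (2.42 ± 0.24, edgeR adjusted p = 1.54e-10). It was also the only member higher in theca-like than in stromal-like cells, with 64.2 to 102.8 against 38.5 to 61.0 CPM and no overlap (0.74 ± 0.17, edgeR adjusted p = 0.000303). In the same way it alone was higher in steroidogenic than in early theca cells, at 91.5, 90.5, 125.8, 77.5 and 64.8 CPM against 81.1, 50.6, 68.1, 65.05 and 59.8 CPM, higher in 5 of 5 libraries with overlapping ranges (0.45 ± 0.13, edgeR adjusted p = 0.00525). Leaving out the 4 wk library ended that call (edgeR adjusted p = 0.0989). In remodeling cells Itga9 held 48.0, 57.3, 38.6, 37.4 and 35.1 CPM, above every antral value of 18.4 to 32.9 CPM (0.66 ± 0.14, edgeR adjusted p = 0.000303). With integrin genes among the clustering features that call was lost (edgeR adjusted p = 0.0705). The unnamed granulosa cluster 0, which is in neither group, held 30.3 to 48.8 CPM and overlapped both. Col14a1 cells had less of it than Cxcl12 cells, 11.5 to 26.8 against 29.4 to 53.4 CPM (-0.90 ± 0.18, edgeR adjusted p = 0.000112).

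Itgb1, the common β chain, was present in every class and library. Pericyte-like cells held 777, 830.2, 646, 703 and 587 CPM, stromal-like cells 377, 335, 303, 314 and 277 CPM, and granulosa-like cells 202, 205, 201, 210.4 and 187 CPM. Its 5 granulosa values lay within 186.7 and 210.4 CPM. Smooth muscle-like cells were above stromal-like cells (0.58 ± 0.09, edgeR adjusted p = 3.24e-06), and theca-like cells (-0.68 ± 0.09, edgeR adjusted p = 9.34e-08) and granulosa-like cells (-0.79 ± 0.09, edgeR adjusted p = 1.17e-09) were below them. Within the follicle, remodeling cells held 268 to 302 CPM, above all primary (173 to 236 CPM) and antral values (147 to 180.1 CPM). The rise over antral cells was 0.70 ± 0.07 (edgeR adjusted p = 7.09e-09). Single clusters of primary and remodeling cells did overlap. Primary cluster 13 held 207.9 to 325.9 CPM and remodeling cluster 6 held 189.4 to 287.2 CPM. Antral cells were slightly below primary cells (-0.21 ± 0.07, edgeR adjusted p = 0.0125), a call lost without the library block, at resolution 0.6 and with integrin genes among the clustering features. Steroidogenic theca cells had less Itgb1 than early theca cells in 5 of 5 libraries (-0.60 ± 0.07, edgeR adjusted p = 4.17e-09).

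Genes that act with the integrins were read from lists of 24 ligands, 27 adaptors and 16 other subunits. In remodeling against antral cells, 15 of 23 adaptors tested were higher and none lower, led by Tns2 (2.64) and Tns3 (1.49 on the log2 scale), tensins that tie integrins to actin. Of 19 ligands in that contrast 10 were higher, led by Spp1 (7.51), the RGD protein osteopontin, and Col4a1 (3.36), a chain of collagen IV, and 1 was lower, Lama4 (-2.54). Both lists had positive medians, 0.59 and 0.81, against -0.01 over all genes. Of all genes in that contrast 24.3% were higher and 26% lower. In antral against primary cells 5 of 23 adaptors were higher and 12 lower, and 2 of 19 ligands higher and 6 lower, where 30.4% of all genes were higher and 26.7% lower. The medians were -0.23 and -0.28, against 0.02 over all genes. Tns2 (-2.58), Tns3 (-2.73) and Col4a1 (-2.86) were among the genes lower in antral than in primary cells. Remodeling and primary cells were not compared by a test. At 2 wk the cells named remodeling held 3312 CPM of summed primary markers and 974.5 CPM of summed remodeling markers. For these lists the fit without the cluster led by Gpx3, Neat1 and Sorbs2 is not given. The part of this makeup in the differences was not tested. Among the other subunits Itga2, a further collagen-binding chain, was higher in antral cells (4.35) and Itgb3, the β3 partner of αv, lower (-2.71).

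Smooth muscle-like cells had 15 of 25 adaptors higher than stromal-like cells and 1 lower, with Lims2 (4.49) and Dst (1.88) leading, beside 5 of 24 ligands higher and 9 lower, where Npnt (4.69), the α8β1 ligand nephronectin, rose most. The adaptors had a median of 0.64 and the ligands of -0.35, against -0.03 over all genes, of which 14% were higher and 16.4% lower. Granulosa-like cells had 5 of 24 ligands higher and 15 lower than stromal-like cells, with Col1a1 (-6.77) and Vtn (-5.95) the lowest, and a ligand median of -3.08 against 0.05 over all genes (32.2% higher and 29.7% lower). Surface epithelial-like cells had 16 of 24 ligands higher than granulosa-like cells and 3 lower, among the former Egfl6 (7.36), with a median of 1.95 against -0.08 over all genes (25.5% higher and 25.8% lower). In lymphatic against blood endothelial-like cells 2 of 24 ligands were higher, Fn1 (2.51) and Tnc (2.19), and 8 lower, with Lama5 at -5.21, where 8.73% of all genes were higher and 10.8% lower. The ligand median there was -0.01 against -0.05 over all genes. Pericyte-like cells carried Itga4 (8.20) and Vtn (7.70) far above smooth muscle-like cells. The values given for genes of these lists are log2 differences of genes called by edgeR's test.

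Over the 47 groups of class and library, the genes most like each member were found by the correlation of log2(CPM + 1). These are descriptions, since the groups share libraries and depth. For Itga8 they were Aspn (r = 0.88), Mmp17 (0.85) and Acta2 (0.83), the smooth muscle actin. For Itga1 they included Atp2b4 (0.86) and Sh3bgrl (0.85), and Atp2b4 was also near Itgb1 (0.89), after Syne1 (0.90) and before Sept7 (0.86). Itgb4 ran with Stap2 (0.93), Kdr (0.90), the VEGF receptor of endothelium, and Cracr2b (0.90), and Itga5 with Coro1c (0.84), Eng (0.83) and Calcrl (0.81). Itga6 had Als2cl (0.83), Kbtbd2 (0.82) and Anp32a (0.82), Itga3 had Tspan1 (0.85), Ccdc92 (0.84) and Epb41l4a (0.84), and Itga9, Itgav and Itgb5 had Fmnl2 (0.78), Ston2 (0.73) and Camk1d (0.79). Among the members themselves the closest pair was Itga1 with Itgb1 (0.84), and the most opposed was Itgb4 with Itgb5 (-0.83).

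The ages were compared last, and without a test, since each age had 1 library. A member was called between 5 and 2 wk when its CPM differed by more than 2-fold, with the exact 95% interval of the ratio on 1 side of 1 and at least 50 UMIs over both. In antral cells 1 of 6 members was lower and none higher (4.05% and 4.21% of all genes). That member was Itga6, at 22.7 CPM at 5 wk (124 UMIs) and 317 CPM at 2 wk (807 UMIs), a ratio of 0.0715 (0.0587 to 0.0865). The interval covers counting error only. Both antral clusters showed it, with ratios of 0.0813 (0.0582 to 0.112) in cluster 8 and 0.0867 (0.0673 to 0.110) in cluster 11, led by Inhba, Hsd3b1 and Nppc. The 2 wk side of these ratios is cells named antral at an age where the study counted no antral follicles.

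The ratio of Itga6 was also read in the other stages and in single granulosa clusters. In primary cells its ratio was 0.7998 (0.768 to 0.833), and in primary cluster 13 it was 1.08 (1.003 to 1.17). Cells named secondary went from 476 CPM at 2 wk to 188 CPM at 5 wk, with a ratio of 0.396 (0.356 to 0.439). Remodeling cells went from 543 CPM at 2 wk and 232 CPM at 3 wk to 40.7, 42.1 and 49.6 CPM at 4, 5 and 6 wk. Within the cluster led by Gpx3, Neat1 and Sorbs2 the ratio was 0.142 (0.120 to 0.166), and in remodeling cluster 6 it was 0.1207. Cells in S phase had ratios of 0.1268 in cluster 3 and 0.4738 in cluster 9. Cells in G2 and mitosis had 0.1204 in cluster 4 and 0.2413 in cluster 12. The unnamed cluster 0 had 0.0885 (0.0729 to 0.1067). The fall in Itga6 was therefore not limited to antral cells. The difference between stages could not be tested with 1 library per age. Beside it, the summed level of the 8 primary-stage markers in antral cells was 1663, 489, 317.4, 337 and 386 CPM at 2, 3, 4, 5 and 6 wk, and all 8 were detected at each age. In secondary cells the same sum was 2828, 1474, 1063, 1139 and 1184 CPM, and in remodeling cells 3312, 1417, 234.5, 348.9 and 367.1 CPM, again with all 8 detected. The 12 remodeling markers summed to 974.5, 1696, 6233, 5312 and 5260 CPM in remodeling cells. That sum was lowest at 2 wk, where the primary sum of the same cells was highest. The summed antral markers rose from 5078 to 11540 CPM over the same libraries, and the median antral cell had 16159 UMIs at 2 wk and 18555 at 5 wk. The part of these shifts in the Itga6 result was not tested.

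**Figure D5:**
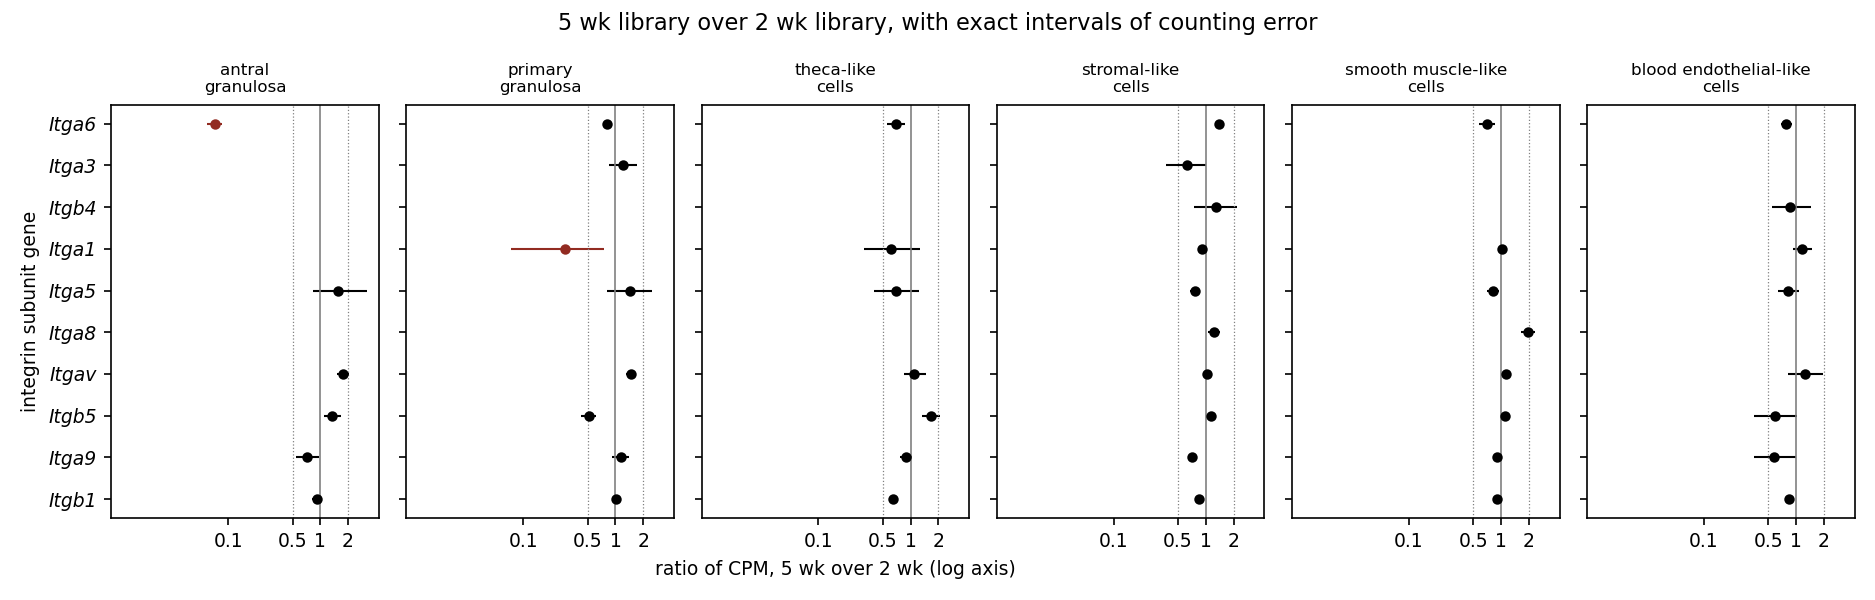
Ratio of CPM at 5 wk to CPM at 2 wk (log horizontal axis, dotted lines at 0.5 and 2) for each integrin subunit with at least 50 UMIs (vertical axis), in 6 groups of cells (panels), with exact 95% intervals that cover counting error only and called ratios in red. Itga6 in antral cells lies at 0.0715, and the other points lie between 0.282 and 1.97.

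In the other groups shown in the plot of ratios, a single member was called between 5 and 2 wk. In primary cells 1 of 8 members was lower and none higher (2.56% and 2.06% of all genes), and this was Itga1, with 4 UMIs at 5 wk against 64 at 2 wk, a ratio of 0.282 (0.0744 to 0.757). That call was lost in 4 of 6 alternatives. Itgb5 in primary cells lay just inside 2-fold, at 0.511 (0.426 to 0.608), and was called lower among cells with at least 1000 genes and when the libraries were merged without integration. No member was called in theca-like cells (8.56% of all genes higher and 7.9% lower), stromal-like cells (4.31% and 3.43%), smooth muscle-like cells (2.32% and 4.51%) or blood endothelial-like cells (3.49% and 4.2%). Itga8 in smooth muscle-like cells came nearest to a call, since its values rose at each age from 22.3 to 51.8 CPM and its ratio at 5 wk was 1.97 (1.65 to 2.36). At 6 wk against 2 wk that ratio was 2.33. Itgav in antral cells was 84.9, 168, 222, 149 and 128 CPM, highest at 4 wk, and its ratio at 5 wk was 1.75 (1.51 to 2.05). Itgb1 had its lowest ratio, 0.651 (0.594 to 0.714), in theca-like cells. In the second clustering the steroidogenic theca cells, which had less Itgb1 than early theca cells, numbered 61 at 2 wk and 488 at 5 wk, and the part of this shift in the ratio was not tested. The other Itgb1 ratios were 0.834 in stromal-like cells, 0.912 in smooth muscle-like cells, 0.846 in blood endothelial-like cells, 0.915 in antral and 1.01 in primary cells.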

How the data were processed

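Single-cell RNA-seq was done on dissociated ovaries of untreated C57BL6/J mice, with live cells sorted and captured by the 10x 3′ method, 1 library per age. The authors aligned reads to mm10 with Cell Ranger and deposited UMI counts per gene and cell, not normalized. The counts were used as deposited, all barcodes kept, and sample columns came from the labels. The 10 members and the lists of ligands, adaptors and other subunits were chosen with earlier results of these data known.

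Following the study's scheme, libraries were integrated with Seurat 5.3.0 (2000 features without integrin genes, 30 components, resolution 1), and granulosa-like and mesenchymal cells were clustered again. Of the 9 integrin genes left out, 2 were members. A cluster was named from at least 3 markers, each in 10% of its cells and 1.5-fold over the median cluster, and, in the second clusterings, a mean z of at least 0.5. The way leading genes were ranked, and which list then gave the name, was changed after the clusters had been seen, without use of integrin values. Of 19346 mesenchymal cells 18469 were in a named subtype. Scrublet (scanpy 1.11.5) marked 162 to 555 cells per library as doublets, which were kept.

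UMIs were summed per group and library (at least 10 cells) and tested with edgeR 4.0.16 (R 4.3.3, Matrix 1.6.5): quasi-likelihood test, TMM scaling, filterByExpr, the library as a block, Benjamini-Hochberg adjustment over all genes tested, threshold 0.05. The SE printed with a log2 difference was derived from that test, as the size of the difference divided by the square root of its F statistic. The block rests on the design, since each library gave cells of both groups compared. The 5 libraries differ in age, and the block takes out shifts shared by all groups of a library. The p-values therefore measure how much differences between groups varied over libraries of different ages. That variation was estimated over all groups of a fit, not only the pair compared. Ages were compared by ratios with exact conditional 95% intervals, without a test. Beside the members, the rule allowed the 3 most correlated genes of each (at least 200 UMIs) and the 2 largest differences per list and direction, of which some are not reported here. On simulated counts with 200 changed genes the test found 93% of 2-fold and 100% of 4-fold changes for granulosa-like against stromal-like cells (11796 genes). It found 84% and 100% for antral against primary cells (12587 genes), and 72% and 98% for steroidogenic against early theca cells (12087 genes). False calls were 3.98%, 5.64% and 3.41% in the same order. The real comparisons called far more than 200 genes in each direction, and whether these rates hold for them was not tested. Alternatives were RLE size factors, DESeq2 1.42.0, no filter, no block, leaving out each library, doublets left out, a stricter cell filter (1000 genes or more, mitochondrial share below 10%), resolution 0.6, integrin genes allowed as features, no integration, another CPM denominator, at least 200 UMIs and other pairs of ages.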

Additional observations from a re-analysis of the deposited data

Results flagged for a closer look

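The CPM ratio of Itga6 between 5 and 2 wk went in opposite directions in 2 groups of cells. In stromal-like cells it was 1.39 (exact 95% interval 1.28 to 1.52), with 40.5 CPM at 5 wk and 29.1 CPM at 2 wk. In granulosa cells named antral it was 0.0715 (0.0587 to 0.0865). The difference between the groups was not tested, since each age had 1 library, and the intervals cover counting error only.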

How the results depend on the processing

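Of the values for single members under the alternatives, 1774 kept their direction and their side of the threshold, 65 lost the call, 28 gained it and 4 changed direction with a call on at least 1 side (uncalled values that changed sign are not counted). Of the counts of members called, 197 stayed within 1.5 times and 19 did not. The shares of all genes called under the alternatives are not given, so the counts of members below have no background to be read against. Lymphatic against blood endothelial-like cells called 3 to 5 members when 1 library was left out. Without the library block the remodeling comparison called 3 members (Itga3, Itga9 and Itgb1) in place of 7, and antral against primary cells 5. The samples share no replicate number beyond the library itself. With no filter on low counts the remodeling comparison called 8 members, all higher. With the libraries merged, antral against primary cells had 1 member higher and 4 lower, Itgav in remodeling cells was at 0.11 (uncalled, edgeR adjusted p = 0.515), and Itgb5 in Col14a1 against Cxcl12 cells was at 0.45, and at 0.26 at resolution 0.6, where the reported value was -0.23 (edgeR adjusted p = 0.0587). Between ages, antral cells had 2 members called at resolution 0.6, with integrin genes as features, at 6 against 2 wk and at 5 against 3 wk, and primary cells 0 in these 4 settings and with at least 200 UMIs. At 5 against 3 wk theca-like cells had 1 (Itga5), stromal-like cells 1 (Itga3) and blood endothelial-like cells 2 (Itga9 and Itgb4). At 6 against 2 wk stromal-like cells had 1, Itgb4 with a ratio of 0.401, and smooth muscle-like cells 2 (Itga5 and Itga8). With integrin genes as features smooth muscle-like cells had 1 (Itga8). Under a stricter cell filter (1000 genes or more, mitochondrial share below 10%), 9 of 10 members kept their highest class, and Itga3 was then highest in rete ovarii-like cells. RLE size factors and the DESeq2 test each gave surface epithelial-like cells 2 further members above granulosa-like cells, Itga5 and Itgb1. In that comparison the median log2 difference of all genes was -0.08 in the reported fit, 0.08 with RLE size factors and 0.19 with DESeq2. The fits without the cluster led by Gpx3, Neat1 and Sorbs2 were chosen after seeing the data. They left Itga1 in remodeling cells at 0.61 (edgeR adjusted p = 0.0292), called, where the reported fit gave 0.54 (edgeR adjusted p = 0.0649). The causes of these changes were not tested. Antral against primordial cells could not be compared, since no cluster was named primordial. Low UMIs limited Itga8, Itgb4 and Itga3 in several classes.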
